A study of Mus musculus with 15 samples.

Results

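Gene expression was compared between 5 APP-PS1 mice injected with anti-CD8a antibody and 5 that received PBS, which are 10 of the 15 libraries of the study. The members were chosen by their labels: every library labelled as APP-PS1 with anti-CD8 or as APP-PS1 with PBS entered, and the other 5, wild-type (WT) mice that also received PBS, served to estimate the spread and are quoted where they place a value. APP-PS1 mice model amyloid deposition. Their transgenes are Mo/HuAPP695swe, a mutant amyloid precursor protein of mixed mouse and human sequence, and PS1-dE9, a mutant form of human presenilin 1. The prion protein promoter directs both to neurons of the central nervous system, and both groups compared here carry them. The mice, males and females, were 12 months old and were treated for 4 weeks, with 10 intraperitoneal injections of 0.8 mg antibody each in the treated group and with 100 µL of PBS in the other 2 groups. The labels' protocol also names an isotype control antibody, but none of the 15 libraries is labelled as having received it. The effect of an injected antibody as such and that of binding CD8a therefore cannot be told apart. The RNA came from a region of 1 hemisphere dissected after perfusion, which the sources used here do not name.

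Cytotoxic T cells carry CD8a as a co-receptor of their antigen receptor, and antibodies against it are used to deplete those cells. Cytotoxic T cells enter brains with amyloid, where they lie close to microglia and neurons. Immediate early genes are switched on in neurons by recent synaptic activity, and interferon-stimulated genes by transcription factors downstream of interferon receptors. Glucocorticoid-response genes are switched on by the steroid-bound glucocorticoid receptor. Only the RNA level of such genes was measured here, not the signals themselves.

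The libraries held 28955514 to 36485809 counts in genes in treated mice and 17736524 to 32535945 in PBS-given mice, so that 3 counts, the lowest level taken as measurable, stand for 0.0822 to 0.169 CPM, the unit of counts relative to library size (gene values given in CPM also carry the TMM scaling factor); this floor covers counting error only. Each library is a separate mouse by the animal numbers in the labels. Ttr, which the choroid plexus makes in large amounts, exceeded 1000 CPM in treated replicate 1 and in PBS replicates 2 and 5 (and in 2 WT libraries), and was between 20.7 and 57.1 CPM in the other 7 APP-PS1 libraries. PBS replicate 1 is labelled male but showed the female pattern of Xist and Y-linked genes, so the treated group holds 2 females and the PBS group 3 by these genes and 2 by the labels. Whether its sex label or the identity of the library is wrong was not tested, and the main model kept the labelled sex. Because the tissue is a mix of cells, a lower value can come from fewer cells of a type or from less RNA per cell, and these cannot be told apart. App (log2 fold change 0.03, standard error (SE) 0.07) and Prnp (−0.04, SE 0.07), whose counts include or accompany the transgenes, had estimates smaller than their SEs between the 2 groups.

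Transcripts of the antibody's target were near the lowest measurable level. Cd8a was at 0.1, 0.399, 0.707, 0.413 and 0.0824 CPM in treated replicates 1 to 5 and at 0.198, 0.389, 0.167, 0.519 and 0.221 CPM in PBS replicates 1 to 5. The 2 groups overlapped throughout, and the estimate of 0.07 had an SE of 0.51 on the log2 scale. Of 29 genes of T and natural killer cells 17 were too low to test, among them Cd3e and Cd8b1, which help form the T cell receptor complex and the CD8 heterodimer. None of the 12 tested had an unadjusted p under 0.05. Summed over the list, treated libraries held 22.6 to 39.5 CPM and PBS libraries 24.1 to 30.6 CPM, and 2891 of the 4367 counts in treated mice came from Ptprc (CD45), which microglia also express. Cd8a had 53 counts over the 5 treated libraries and 42 over the 5 PBS libraries, with none at 0, so that no difference was detected and the estimate is imprecise.

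Across the transcriptome no difference passed the main test, and estimates ranged from −6.29 to 1.61 on the log2 scale. Of 18974 genes tested, 0 had an adjusted p under 0.05 in edgeR's quasi-likelihood test (0% of genes tested, smallest adjusted p 0.223). At an unadjusted p under 0.05 there were 2529 genes (13.3%), of which 1440 had a higher (7.59%) and 1089 a lower (5.74%) estimate in treated mice. DESeq2, run on the same libraries and model as an alternative, called 143 of the 13807 genes to which it gave an adjusted p (1.04%), 70 higher (0.507%) and 73 lower (0.529%). The 5 treated and 5 PBS values did not overlap for 341 genes, 181 higher (0.954%) and 160 lower (0.843%) in treated mice. Values below are therefore given as estimates, and a gene is said to have passed in DESeq2 where that tool called it. Genes named below for their small p were picked in these same libraries. Their lack of overlap and their DESeq2 calls follow largely from that choice.

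**Figure D1:**
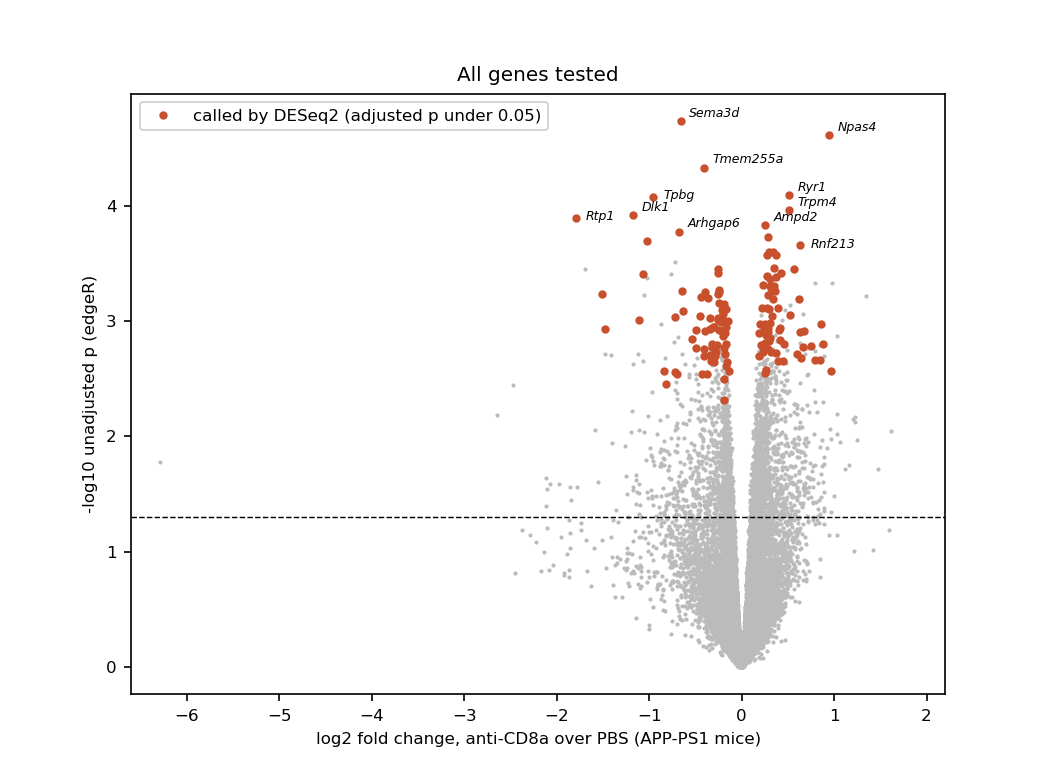
Log2 fold change, treated over PBS (x axis), against the −log10 of edgeR's unadjusted p (y axis) for the 18974 genes tested; the dashed line marks an unadjusted p of 0.05 and red points the 143 genes called by DESeq2. Npas4 lies highest on the right and Sema3d highest on the left, and the called genes are spread over both sides.

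Npas4 had the smallest p of the genes with a higher estimate. It encodes a transcription factor that neurons induce on calcium entry and that shapes their inhibitory synapses, and lies at chr19:4984355-4990316, minus strand (GRCm38, GENCODE M21). Npas4 was at 14.6, 12.7, 15.5, 19.6 and 17.4 CPM in treated replicates 1 to 5 and at 9.98, 5.69, 6.400, 8.297 and 11.1 CPM in PBS replicates 1 to 5. Every treated value lay above every PBS value, and the WT values, 10.7 to 12.8 CPM, lay between the means of the 2 groups. The means were 15.97 ± 2.67 and 8.29 ± 2.296 CPM (SD, n = 5 each), and the estimate on the log2 scale was 0.95 (SE 0.16; edgeR gave an adjusted p of 0.223 and DESeq2 one of 4.83e-05). Over the 23 alternatives run with edgeR or limma-voom its adjusted p ranged from 0.0104 to 0.885, with 2 of them under 0.05.

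Ryr1 and Trpm4, which both handle calcium signals, came next. Ryr1 encodes a channel that releases calcium from internal stores, and was at 39.5, 35.8, 44.7, 31.8 and 43.7 CPM in treated mice against 29.4, 25.6, 29.4, 23.5 and 29.3 CPM in PBS-given mice. The groups did not overlap, and of the treated values 2 lay within the span of the WT mice (33.7 to 42.6 CPM), 2 above it and 1 below it. The log2 fold change was 0.51 (SE 0.10, adjusted p 0.223 in edgeR and 0.00166 in DESeq2). Trpm4, a cation channel opened by internal calcium, was at 14.02, 10.5, 14.8, 11.5 and 13.6 CPM against 9.45, 8.76, 8.53, 9.36 and 8.78 CPM, again without overlap, and the 5 PBS values were close together while the treated ones were spread more widely (log2 fold change 0.52, SE 0.10, adjusted p 0.00251 in DESeq2).

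The other 7 genes of smallest p with a higher estimate had log2 fold changes from 0.26 to 0.63. Adcy1, a calcium-stimulated adenylyl cyclase of neurons, was at 1344 ± 149.6 against 1059 ± 51.99 CPM (0.34, SE 0.07). Iqsec2, an exchange factor at excitatory synapses (0.29), Dgkz, which removes the lipid messenger diacylglycerol (0.38), Ampd2, an enzyme of purine turnover (0.26), and Wdr91, which acts on endosomes (0.28), did not overlap between groups either. Inka2 (0.30), which encodes an inhibitor of the kinase PAK4, overlapped through treated replicate 1. Rnf213, a large interferon-inducible ubiquitin ligase, was at 45.3, 40.3, 77.9, 53.9 and 52.9 CPM in treated mice and 38.4, 30.9, 30.8, 32.6 and 41.6 CPM in PBS-given mice. Its groups overlapped, treated replicate 3 stood highest, and all 10 APP-PS1 values lay above the highest WT value of 28.8 CPM. These 7 genes passed in DESeq2, with adjusted p from 0.0035 (Adcy1) to 0.0148 (Inka2 and Wdr91).

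**Figure D2:**
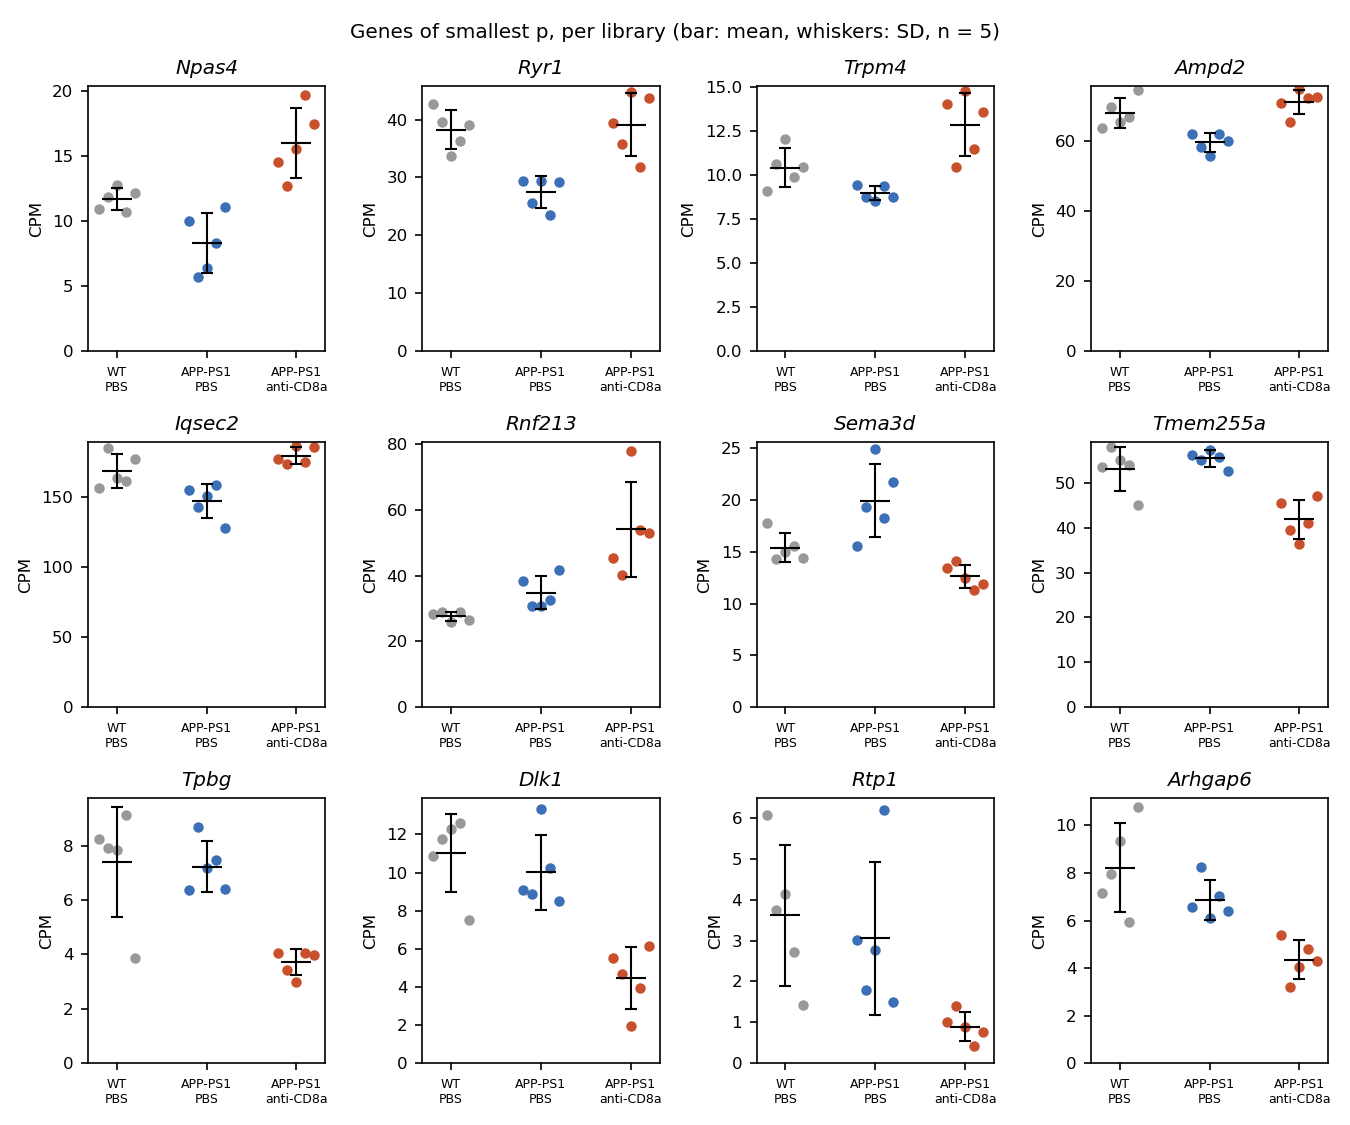
CPM (y axis) in each library of the WT group, the PBS-given APP-PS1 group and the treated APP-PS1 group (x axis) for the 6 genes of smallest p with a higher and the 6 with a lower estimate in treated mice; points are libraries, the bar is the mean and the whiskers the SD (n = 5). Treated and PBS-given APP-PS1 libraries do not overlap in any panel but that of Rnf213. The genes were chosen by p in these same libraries, so little overlap follows from the choice.

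Sema3d had the smallest p of all genes tested. It encodes a secreted semaphorin, a guidance cue for axons and vessels, and lies at chr5:12383385-12588948, plus strand. Sema3d was at 13.5, 14.1, 12.4, 11.3 and 11.8 CPM in treated replicates 1 to 5 and at 15.5, 19.3, 24.9, 18.2 and 21.7 CPM in PBS replicates 1 to 5. All treated values were lower than all PBS values and lower than the WT values (14.3 to 17.7 CPM). The log2 fold change was −0.66 (SE 0.11, adjusted p 0.223 in edgeR and 5.95e-05 in DESeq2), and over the 23 alternatives with edgeR or limma-voom the adjusted p ranged from 0.0116 to 0.885.

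The 3 largest log2 fold changes among the 10 genes of smallest p with a lower estimate belonged to genes of low level. Dlk1, an imprinted gene for a membrane ligand related to Notch ligands, was at 5.51, 4.71, 1.95, 3.96 and 6.15 CPM in treated mice and at 9.09, 8.87, 13.3, 10.2 and 8.502 CPM in PBS-given mice. Gpr101, an orphan receptor found in the hypothalamus among other regions, was at 10.5, 7.42, 5.86, 9.77 and 9.26 CPM against 15.5, 15.3, 18.8, 19.98 and 18.4 CPM. Rtp1, a chaperone that brings odorant receptors to the cell surface, was at 1.001, 1.398, 0.876, 0.413 and 0.769 CPM against 3.01, 1.802, 2.76, 6.19 and 1.49 CPM. None of the 3 overlapped, although the highest treated value of Rtp1, in replicate 2, came close to its lowest PBS value, in replicate 5. Their log2 fold changes were −1.17 (SE 0.23), −1.02 (SE 0.21) and −1.79 (SE 0.36), with adjusted p of 0.000491, 0.000897 and 0.000491 in DESeq2 and 0.223 in edgeR.

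The remaining genes of this set did not overlap between groups either. Tpbg, a membrane inhibitor of Wnt signalling, was at 3.71 ± 0.479 against 7.23 ± 0.948 CPM (−0.96, SE 0.18), and Arhgap6 at 4.35 ± 0.817 against 6.87 ± 0.83 CPM (−0.68, SE 0.14). Tmem255a, a transmembrane protein gene, was the most even of them, with 45.4, 39.4, 36.5, 41.1 and 47.01 CPM in treated and 56.3, 55.2, 57.4, 55.7 and 52.6 CPM in PBS-given mice (−0.40, SE 0.07). Neto2, an auxiliary subunit of kainate receptors (−0.25), Aig1, a hydrolase of fatty-acid esters (−0.25), and the unnamed gene model Gm36944 (−0.72) complete the 10. DESeq2 gave no adjusted p to Gm36944 and called the other 9.

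Immediate early transcription factors stood on the higher side almost throughout. These genes are transcribed within minutes of neuronal firing and carry activity into later gene programmes. Of 18 tested, 16 had a higher estimate and 13 an unadjusted p under 0.05 (72.2%, against 7.59% of all genes), none had a lower estimate with such a p, and the median log2 fold change was 0.53 against 0.02 over all genes tested. Npas4, Nr4a1 (0.67), Egr4 (0.88) and Junb (0.75) passed in DESeq2. The list was proposed with these results known, so its direction is a description.

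Npas4 was the single member whose groups did not overlap, and the others differed in how far mice overlapped. Fos, the classical marker of recent firing, was at 18.6, 8.22, 19.8, 28.97 and 18.4 CPM in treated replicates 1 to 5 and at 10.4, 6.71, 5.27, 7.32 and 19.1 CPM in PBS replicates 1 to 5. Egr1, a zinc finger factor tied to synaptic plasticity, was at 97.7, 64.7, 119, 122 and 99.7 CPM against 81.2, 61.3, 47.8, 51.5 and 81.2 CPM. In Fos, PBS replicate 5 lay above treated replicates 1, 2 and 5, and in Egr1 treated replicate 2 lay below PBS replicates 1 and 5. Egr2, a close relative of Egr1, had the largest fold change of the list (1.17, SE 0.44), while Nr4a2 (−0.07), Maff (−0.11) and Fosl2 (0.001) had estimates near 0. Relative to the mean of the 10 libraries, the list's level was between −0.57 and 0.11 in PBS libraries and between −0.18 and 0.46 in treated ones on the log2 scale, with treated replicate 2 lowest of its group.

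Other genes regulated by neuronal activity, the effectors, were less even. Arc, which controls the removal of AMPA receptors from synapses, was at 119.9, 70.5, 180.4, 144 and 135 CPM in treated mice and at 86.9, 64.8, 45.2, 63.99 and 100.2 CPM in PBS-given mice. Treated replicate 2 lay below PBS replicates 1 and 5, and the other treated values above all PBS values (log2 fold change 0.85, with an SE of 0.22 and an adjusted p of 0.223 in edgeR and 0.0705 in DESeq2). Of 24 activity-regulated effectors 17 had a higher estimate, 8 with an unadjusted p under 0.05 (33.3%) against 1 lower (4.17%), and the median was 0.15. The phosphatases Dusp4 (0.37, passed in DESeq2), Dusp6 (0.36) and Dusp1 (0.58), which switch off MAP kinases, the growth factor Bdnf (0.23) and the kinase Plk3 (0.37) were among the 8, and Spred1 (−0.16), an inhibitor of the Ras pathway, was the 1. Homer1 (−0.16), Nptx2 (0.09) and Scg2 (−0.04), also induced by activity, had an unadjusted p above 0.05.

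Postsynaptic genes had small but even differences. Of 30 scaffolds and kinases of the excitatory postsynapse, 27 had a higher estimate and 18 an unadjusted p under 0.05 (60%), none lower; their median log2 fold change was 0.17, with none above 0.32. Camk2b, a subunit of the calcium/calmodulin-dependent kinase that sets synaptic strength, was at 1113, 1212, 1387, 1195 and 1304 CPM in treated replicates and 1091, 936, 1032, 1032 and 938 CPM in PBS replicates. Its groups did not overlap (0.30, SE 0.07, adjusted p 0.0106 in DESeq2). Shank3, a scaffold that links receptors to the cytoskeleton, was at 213, 219, 224, 223 and 228 CPM against 183, 163, 164, 220.4 and 159.8 CPM. Here PBS replicate 4 lay among the treated values, which were close together (0.32, SE 0.07). Kalrn, an exchange factor that enlarges spines (0.29), Camk2a (0.25) and Iqsec2 passed in DESeq2 as well. Without the 5 libraries above 1000 CPM of Ttr the median was 0.09.

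Receptors and channels of neurons followed with smaller shares. Of 24 glutamate receptor genes 16 had a higher estimate, 4 with an unadjusted p under 0.05 (16.7%) and 2 lower (8.33%). Cacng8, an auxiliary AMPA receptor subunit (0.36, SE 0.08), passed in DESeq2, and the NMDA receptor subunits Grin1 (0.19) and Grin2c (0.24) were also among the 4, with Grin1 not overlapping. The metabotropic receptor Grm8 (−0.44) and the AMPA receptor subunit Gria4 (−0.25) were the 2 lower. Of 32 neuronal ion channels 26 had a higher estimate and 12 an unadjusted p under 0.05 (37.5%), none lower. Besides Trpm4 they included the calcium channels Cacna1a (0.24) and Cacna1h (0.26). Of 15 genes of calcium release and extrusion 13 had a higher estimate and 4 such a p (26.7%): Ryr1, the related Ryr2 (0.30), the calcium pump Atp2b2 (0.18) and the store-operated channel Orai2 (0.24).

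Presynaptic genes had a share on the higher side like that of glutamate receptors, and genes of GABA signalling were closer to the background. Of 34 presynaptic genes 25 had a higher estimate and 6 an unadjusted p under 0.05 (17.6%), none lower, and the median was 0.05. Syt7, a calcium sensor of vesicle release, did not overlap (396, 386, 469.6, 394 and 398 CPM against 381, 331, 341, 355 and 322 CPM), with treated replicate 3 far above the others. Of 20 genes of GABA signalling 7 had a higher estimate, and 1 in each direction had an unadjusted p under 0.05 (5% each). Gabrd (0.48, SE 0.14), the subunit of extrasynaptic GABA receptors, was the higher one and Gabra3 (−0.39, SE 0.13) the lower, without overlap. The GABA-synthesising enzymes Gad1 (−0.09) and Gad2 (−0.15) had an unadjusted p above 0.05.

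**Figure D3:**
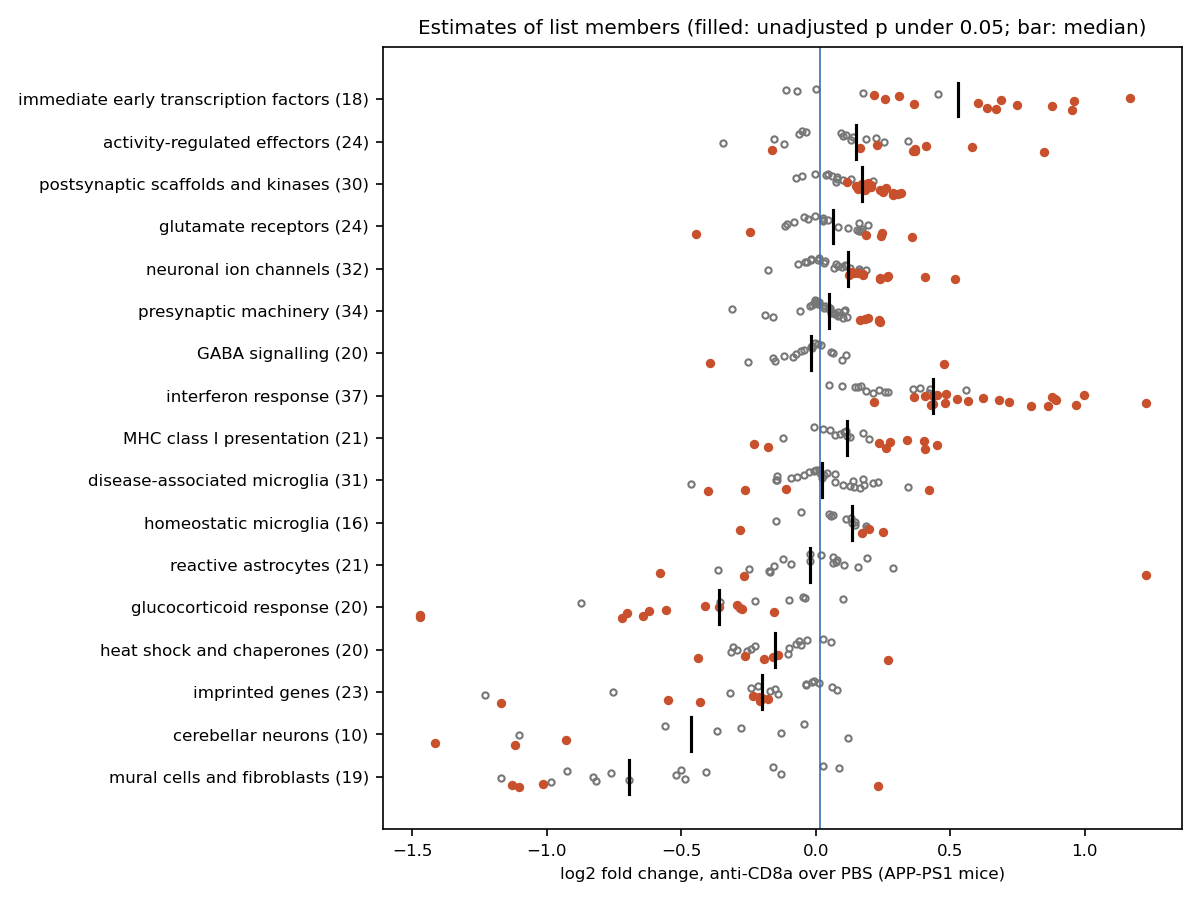
Log2 fold change (x axis) of each tested member of 17 gene lists (y axis, number tested in brackets); filled points have an unadjusted p under 0.05, the black bar is the list's median and the blue line the median of all genes tested, 0.02. Interferon, immediate early and postsynaptic members lie mostly to the right of the line and glucocorticoid-response members mostly to the left.

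Interferon-stimulated genes all had a higher estimate. Of 37 tested, 22 had an unadjusted p under 0.05 (59.5%, against 7.59% of all genes), and the median log2 fold change was 0.43. Irf7, the factor that amplifies the interferon response, was at 4.37, 2.51, 9.46, 6.99 and 4.56 CPM in treated replicates 1 to 5 and at 3.603, 2.15, 2.76, 2.78 and 2.87 CPM in PBS replicates 1 to 5. Treated replicates 3 and 4 stood highest, treated replicates 1 and 5 lay above the PBS values, and treated replicate 2 lay among them. Its log2 fold change was 0.97 (SE 0.27, adjusted p 0.048 in DESeq2 and 0.229 in edgeR). Isg15, a ubiquitin-like modifier, was at 4.11, 2.68, 7.34, 6.54 and 4.67 CPM against 3.14, 2.72, 2.301, 2.898 and 3.53 CPM, with the same order of treated mice at the top (0.80, SE 0.22).

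Sensors, effectors and signal carriers of the pathway differed in which treated mice stood apart. Rtp4 (0.86), an interferon-induced chaperone, passed in DESeq2 with Irf7 and Isg15. The chemokine Cxcl10 had the largest estimate (1.23, SE 0.40), at 1.101, 1.17, 3.67, 5.02 and 2.47 CPM in treated mice and 1.45, 0.954, 0.669, 1.37 and 1.27 CPM in PBS-given mice; treated replicates 1 and 2 lay within the PBS values and the other 3 above them, and without treated replicate 4 the estimate was 0.81. Zbp1, a sensor of left-handed nucleic acid (1.00), and the antiviral effectors Mx1 (0.89), Oas1a (0.89) and Ifit1 (0.72) were among the 22. The signal carriers Stat2 (0.22) and Irf9 (0.43) were too, with Irf9 at 0.27 without treated replicate 3, and Stat2 was the single member whose groups did not overlap. Ifit2 (0.05), Ifi27 (0.10) and Ifih1 (0.15) had an unadjusted p above 0.05.

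The list's level differed among the treated mice. Relative to the mean of the 10 libraries it was 0.70 in treated replicate 3, 0.47 in replicate 4, 0.09 in replicate 5, −0.01 in replicate 1 and −0.30 in replicate 2 on the log2 scale, and between −0.31 and 0.01 in PBS libraries. Without treated replicate 3 the list's median was 0.29, and without treated replicate 2 it was 0.58. Treated replicate 3 also had the highest level of the lists of disease-associated (0.62) and homeostatic (0.50) microglia; the part of microglia in the interferon difference was not tested.

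Promoters of the genes in the interferon list were read from RefSeq (GRCm38.p6). The list was made of genes known to respond to interferon, so its share of matches does not depend on the treatment. The interferon-stimulated response element, searched on both strands as GAAA, any 2 bases and GAAA again in the 250 bases before each start, occurred in 14 of the 28 listed genes with a promoter in the table (50%) and in 936 of 27025 genes overall (3.46%). The 5 genes with a match and the smallest p are shown 5′ to 3′ on the strand of the gene, with the matches in capitals; a match that reads TTTC, 2 bases and TTTC is the same element on the other strand, and the matches of Isg15 overlap.
Isg15, chr4:156200850-156200921, minus strand: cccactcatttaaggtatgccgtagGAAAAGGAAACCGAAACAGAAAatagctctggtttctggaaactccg
Cxcl10, chr5:92349068-92349127, minus strand: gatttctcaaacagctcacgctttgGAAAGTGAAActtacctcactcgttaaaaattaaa
Stat2, chr10:128270251-128270310, plus strand: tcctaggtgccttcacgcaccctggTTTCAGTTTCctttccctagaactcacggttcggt
Ifit1, chr19:34640760-34640838, plus strand: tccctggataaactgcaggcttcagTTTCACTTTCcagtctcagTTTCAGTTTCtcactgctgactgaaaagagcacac
Ifit3, chr19:34583348-34583441, plus strand: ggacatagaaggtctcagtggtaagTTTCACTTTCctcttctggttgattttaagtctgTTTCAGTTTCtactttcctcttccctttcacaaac
The last match ended 56 bases before the start in Isg15 and 203 bases before it in Cxcl10, so its place is not shared.

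Elements of other signals were searched in the same windows. The cyclic AMP response element TGACGTCA stood in 2 of 15 immediate early factors (Btg2 and Maff) and in 4 of 17 effectors (Dusp1, Pcsk1, Plk2 and Scg2), against 1.77% of all genes, and the CArG box in 1 of 15 (Egr2) and 1 of 17 (Dusp5), against 1.62%. The glucocorticoid half-site pair ACANNNTGT stood in 3 of 17 glucocorticoid-response genes (Map3k6, Mt1 and Sgk1), against 6.76%. The interferon element itself stood in 2 of 15 immediate early factors and 4 of 17 effectors. A match in these windows is a stretch of letters and not a bound site.

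Genes of MHC class I presentation, some of which interferon also controls, had estimates in both directions. Of 21 genes of MHC class I presentation 17 had a higher estimate, 7 with an unadjusted p under 0.05 (33.3%) and 2 lower (9.52%). Tap1, a subunit of the transporter that brings peptides to MHC class I, was at 5.17, 5.19, 7.51, 6.57 and 5.88 CPM in treated mice and 4.07, 4.87, 4.77, 4.12 and 5.08 CPM in PBS-given mice, without overlap (0.41, SE 0.11). Its partner Tap2 (0.26), the MHC class I transactivator Nlrc5 (0.45, but 0.26 with an unadjusted p of 0.0823 without treated replicate 3) and the immunoproteasome subunits Psmb8 (0.34), Psmb9 (0.40) and Psmb10 (0.23) were on the same side. Canx (−0.18) and Pdia3 (−0.23), chaperones of the endoplasmic reticulum, were the 2 lower, both without overlap. The MHC class I chains H2-D1 (0.20), H2-K1 (0.13) and B2m (0.05) had an unadjusted p above 0.05, and none of the 21 passed in DESeq2.

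Microglial and astrocyte genes that mark amyloid pathology had an unadjusted p under 0.05 at a share near that of all genes, 7.59% higher and 5.74% lower. Of 31 genes of disease-associated microglia 1 had a higher estimate with an unadjusted p under 0.05 (3.23%) and 3 a lower one (9.68%), and the median was 0.02 with all libraries and −0.17 without treated replicate 3. Trem2, the lipid-sensing receptor these cells depend on, was at 22.6, 31.2, 59.2, 32.5 and 24.2 CPM in treated and 33.7, 22.4, 24.3, 42.4 and 27.8 CPM in PBS-given mice, against 10.8 to 11.6 CPM in WT mice. Both groups lay above WT mice and overlapped each other, with treated replicate 3 highest (0.14, SE 0.18, adjusted p 0.751 in edgeR). Cst7, a protease inhibitor of plaque-associated microglia, also had its highest value in treated replicate 3 (9.31, 19.7, 53.2, 17.3 and 11.9 CPM against 17.98, 13.1, 15.3, 31.6 and 18.3 CPM, log2 fold change 0.07, SE 0.26). Gfap, the intermediate filament of astrocytes, was at 879.5 ± 249.5 against 833 ± 172 CPM (0.06, SE 0.14).

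The members with such a p are given as values, since their shares were near those of all genes in disease-associated microglia and reactive astrocytes (4.76% higher and 9.52% lower in the latter). Timp2, an inhibitor of metalloproteases, was at 215, 206, 146, 172 and 199.6 CPM in treated and 254, 237, 272, 243 and 231 CPM in PBS-given mice, lower without overlap, and passed in DESeq2 (−0.40, SE 0.10, adjusted p 0.0258). Igf1, a growth factor (−0.27), and Hif1a, the oxygen-regulated factor (−0.11), were the other 2 lower ones, and Cd52, a small surface glycoprotein, the 1 higher (0.42, but 0.21 with an unadjusted p of 0.159 without treated replicate 3). In homeostatic microglia 3 of 16 members had an unadjusted p under 0.05 on the higher side (18.8%), the fractalkine receptor Cx3cr1 (0.25), Bin1 (0.17) and the transcription factor Sall1 (0.20), and Mertk (−0.28), a phagocytic receptor, on the lower (6.25%). Without treated replicate 3, Cx3cr1 was at 0.14 and Sall1 at 0.12, both with an unadjusted p above 0.05. Of 21 complement genes 3 were lower with such a p (14.3%) and none higher, C2 (−0.75) and the receptor C5ar1 (−0.47) among them. In reactive astrocytes S100a10 (−0.27, no overlap) and Cp (−0.58) were lower and Cxcl10 higher, of 21 tested. Igf1, Hif1a, Mertk, C2, C5ar1 and Cp each had an unadjusted p above 0.05 when certain single libraries were left out.

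Glucocorticoid-response genes stood on the lower side. Of 20 tested, 19 had a lower estimate and 13 an unadjusted p under 0.05 (65%, against 5.74% of all genes), none higher, with a median log2 fold change of −0.36. Sgk1, a kinase induced by corticosteroids, was at 128, 125, 142, 77.6 and 89.8 CPM in treated replicates 1 to 5 and at 155, 229, 168, 180.2 and 182 CPM in PBS replicates 1 to 5. Its groups did not overlap, and treated replicates 4 and 5 were lowest (−0.72, SE 0.18, adjusted p 0.223 in edgeR and 0.036 in DESeq2). Plin4, which coats lipid droplets, was at 11.9, 29.9, 11.4, 5.299 and 8.27 CPM against 27.7, 31.3, 31.1, 65.98 and 14.1 CPM, with treated replicate 2 high in its group and PBS replicate 5 low in its own (−1.47, SE 0.40). Hif3a, a hypoxia-inducible factor subunit, repeated that order (−1.47, SE 0.37, passed in DESeq2).

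Sgk1 was the single member of the list whose groups did not overlap. Tsc22d3 (also called GILZ), through which glucocorticoids dampen inflammation, was at 74.4 ± 23.6 against 114 ± 19.2 CPM (−0.64, SE 0.17). Map3k6 (−0.70, passed in DESeq2), the cell cycle inhibitor Cdkn1a (−0.62), the NF-kappaB inhibitor Nfkbia (−0.27), Zbtb16 (−0.36) and Fkbp5 (−0.29), a co-chaperone of the glucocorticoid receptor, were also among the 13. The receptor itself, Nr3c1, was the single member with a higher estimate (0.10), and the metallothioneins Mt1 (−0.05) and Mt2 (−0.36) had an unadjusted p above 0.05. By library, the level of the list was 0.19 in treated replicate 2 and between −0.48 and −0.16 in the other 4, and between −0.03 and 0.51 in PBS libraries. The list of circadian clock genes, which glucocorticoids can shift, had a median of 0.03, with 2 of 19 members at an unadjusted p under 0.05 in each direction (10.5% each).

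Chaperones and imprinted genes also leaned to the lower side. Of 20 heat shock and chaperone genes 17 had a lower estimate, 5 with an unadjusted p under 0.05 (25%) and 1 higher (5%), and the median was −0.15. Hsp90aa1, the inducible HSP90, did not overlap (864 ± 38.9 against 987 ± 41.9 CPM, −0.19, SE 0.06, passed in DESeq2). Hspa5 (−0.44) and Hsp90b1 (−0.26), chaperones of the endoplasmic reticulum, and the mitochondrial Hspd1 (−0.14) were on the same side, and Dnajb5 (0.27, passed in DESeq2) on the other. Of 23 imprinted genes 20 had a lower estimate and 8 an unadjusted p under 0.05 (34.8%), none higher, with a median of −0.20. Besides Dlk1 they included Peg10, a gene derived from a retroelement (−0.43, passed in DESeq2), the growth regulators Plagl1 (−0.55) and Grb10 (−0.21), and the ubiquitin ligase Ube3a (−0.18).

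Markers of regions and of cells at the border of the brain differed between the same libraries. Hippocampal neuron markers had 14 of 18 higher estimates, 6 with an unadjusted p under 0.05 (33.3%) and 1 lower (5.56%), and Lct (0.63, 0.40 without treated replicate 3) and Tdo2 (0.65), markers of dentate granule cells, and the calcium-binding protein gene Cabp7 (0.25) passed in DESeq2. The level of this list, which stood on the same side as the immediate early and postsynaptic lists, was −0.01 in treated replicate 1 and 0.05 to 0.12 in the other 4, and −0.12 to −0.002 in PBS libraries. Cerebellar markers had 9 of 10 lower estimates, 3 with an unadjusted p under 0.05 (30%), and a median of −0.46. The median was −0.20 without PBS replicate 5, −0.30 without PBS replicate 2 and −0.75 without PBS replicate 1. PBS replicate 2 was high in these genes: Car8, a Purkinje cell gene, was at 9.88, 26.3, 7.24, 6.07 and 7.73 CPM in PBS replicates 1 to 5 and at 6.64, 3.99, 4.48, 5.402 and 5.17 CPM in treated ones (−1.12, and −0.61 without PBS replicate 2). Thalamic markers were high in treated replicate 4 (1.43 on the log2 scale, against −0.48 to −0.17 in the other 4). The part of the dissection in the differences of neuronal genes was not tested.

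Genes of the choroid plexus, ventricle lining and meninges leaned to the lower side together. Of 16 choroid plexus genes all had a lower estimate and none an unadjusted p under 0.05, with a median of −1.87. It was −3.30 without treated replicate 1 and −0.72 without PBS replicate 5. Their summed level ranged from 279 to 3330 CPM in treated and from 316 to 7347 CPM in PBS libraries, and none of them was at 0 in any of the 10 libraries. Without the 5 libraries above 1000 CPM of Ttr the median was −0.14. Ependymal genes had 10 of 10 lower estimates and none with such a p. Of 19 genes of mural cells and fibroblasts 16 had a lower estimate, 3 with such a p (15.8%), with a median of −0.70; Dcn, a proteoglycan of meningeal fibroblasts, was at 63.1, 35.8, 14.3, 47.2 and 40.99 CPM in treated and 65.2, 86.8, 103, 78.6 and 92.8 CPM in PBS-given mice, without overlap (−1.10, SE 0.27, passed in DESeq2). Their summed level was 350.4 to 550.0 CPM in treated and 359.6 to 688 CPM in PBS libraries, with treated replicates 2, 3 and 5 and PBS replicate 1 lowest by the mean of their log values. Pdgfrb, the receptor that marks pericytes, was higher without overlap (25.6, 25.4, 27.2, 25.4 and 26.98 CPM against 20.03, 23.6, 21.8, 23.4 and 22.5 CPM, 0.23, SE 0.06).

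The immediate early, interferon and glucocorticoid lists had medians of the same sign without the libraries rich in choroid plexus. Leaving out all 5, the medians were 0.51 for immediate early factors, 0.53 for interferon-stimulated genes and −0.51 for glucocorticoid-response genes. With the level of choroid plexus genes as a term in the model they were 0.55, 0.43 and −0.38. The animal numbers in the labels fall into a lower (8355 to 8383) and a higher series (8502 to 8541), which the labels do not explain, with 3 treated and 3 PBS mice in the first and 2 of each in the second. Within the lower series the 3 medians were 0.36, 0.37 and −0.44, and within the higher series 0.77, 0.56 and −0.47.

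**Figure D4:**
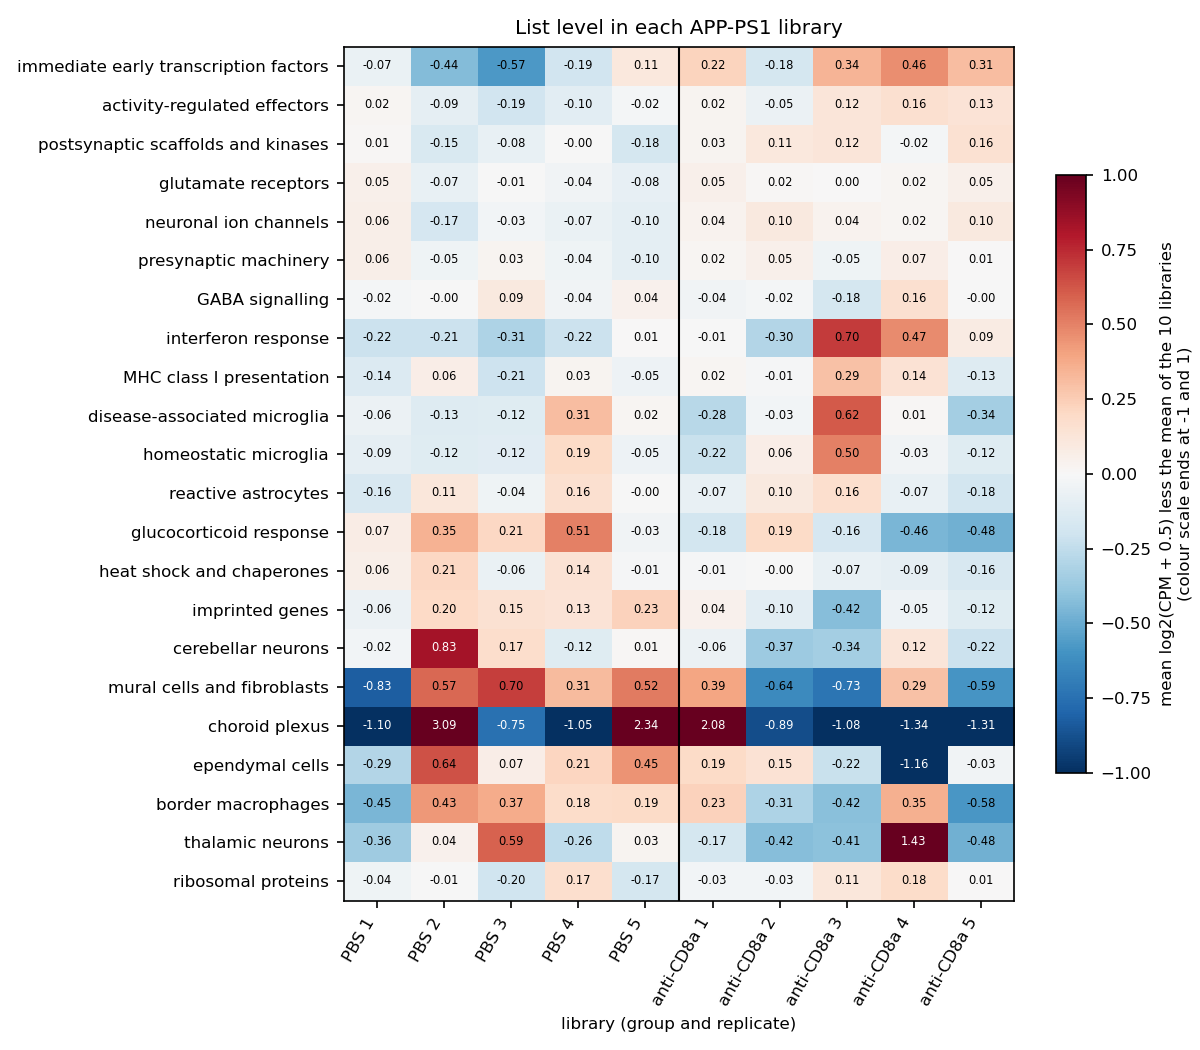
Level of 22 gene lists (y axis) in each APP-PS1 library (x axis), as the mean log2(CPM + 0.5) of the members less its mean over the 10 libraries, printed in each cell and coloured from blue (low) to red (high) with the scale ending at −1 and 1. Interferon levels are highest in treated replicates 3 (0.70) and 4 (0.47), and choroid plexus levels in treated replicate 1 and PBS replicates 2 and 5.

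Single libraries changed how many genes were called. Leaving out each APP-PS1 library in turn, edgeR called 0 to 2 genes, and 1752 (without treated replicate 5) to 3420 (without PBS replicate 4) had an unadjusted p under 0.05. DESeq2 called 13 genes without PBS replicate 2, 17 without treated replicate 3 and 19 without PBS replicate 3 or treated replicate 5. It called 860 without PBS replicate 4, 423 without PBS replicate 1, 400 without treated replicate 2 and 221 without treated replicate 4. Of the 143 genes, 120 were also called without PBS replicate 4 and 12 without PBS replicate 2. Without the 5 libraries above 1000 CPM of Ttr DESeq2 called 93 genes, 34 of them among the 143.

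**Figure D5:**
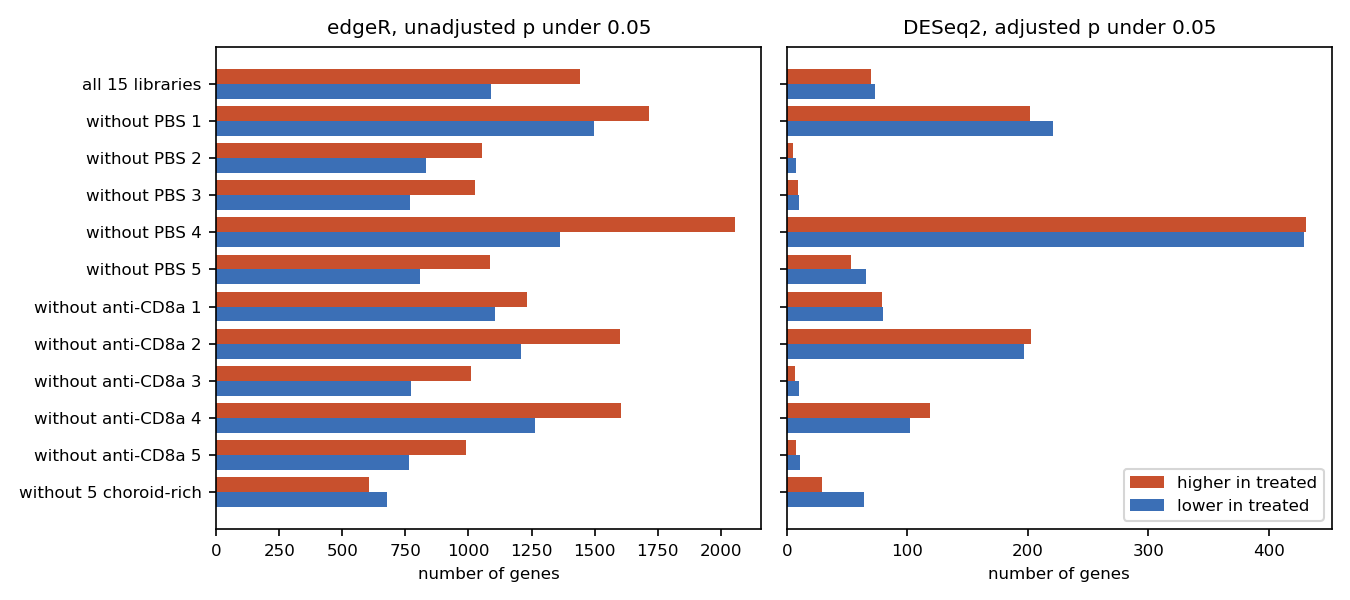
Number of genes (x axis) with an unadjusted p under 0.05 in edgeR (left) and called by DESeq2 at an adjusted p under 0.05 (right), higher (red) or lower (blue) in treated mice, with all 15 libraries and with libraries left out (y axis). DESeq2 calls range from 13 without PBS replicate 2 to 860 without PBS replicate 4.

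Treated mice can also be placed against the difference between PBS-given APP-PS1 and WT mice, which uses the same 5 APP-PS1 PBS libraries, so that the 2 differences share them and are set side by side as values only. These 5 libraries enter the 2 differences with opposite signs. An error in their mean alone therefore pushes the 2 estimates to opposite sides, most of all in genes picked for a small p. Opposite signs below cannot be read as a return towards WT mice. Npas4 was −0.50 in PBS-given APP-PS1 against WT mice on the log2 scale and 0.95 in treated against PBS-given APP-PS1 mice. Ryr1 was −0.49 and 0.51, Arc −0.56 and 0.85, Camk2b −0.19 and 0.30, and Sema3d 0.40 and −0.66. Interferon-stimulated genes had medians of 0.46 and 0.43, disease-associated microglia 0.88 and 0.02, immediate early factors −0.24 and 0.53, and glucocorticoid-response genes 0.10 and −0.36. Of the single genes named in these sentences Ryr1 passed in the first comparison (adjusted p 0.029 in edgeR); in the second none passed in edgeR, and Npas4, Ryr1, Camk2b and Sema3d passed in DESeq2.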

How the data were processed

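Polyadenylated RNA of brain tissue from 15 mice was sequenced with a stranded kit on a NextSeq500, per the labels' protocols. The authors deposited raw read counts per Ensembl gene for 46078 genes as 1 table. Per the submitters' processing notes, the tools included Bowtie2 2.2.2, HTSeq 0.11.2 and DESeq2, with build GRCm38; the sources used here do not give the annotation release or the strand setting, so reads of overlapping and antisense genes may be mixed. Bowtie2 does not split reads over introns. The 5 HTSeq summary lines (per library 19.97 to 25.85% in no feature, 2.699 to 2.917% not aligned uniquely and 1.635 to 1.787% ambiguous) were left out. The counts of the 20 pairs of libraries within the 2 APP-PS1 groups did not match within counting noise (their chi-square was 12.47 to 30.65 per degree of freedom), so none was counted as a duplicate.

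Genes were tested with edgeR 4.0.16 (R 4.3.3, two-sided quasi-likelihood F test) after filterByExpr, which kept 18974 genes, with TMM scaling, a model of group and labelled sex over all 15 libraries (11 residual degrees of freedom) and Benjamini-Hochberg adjustment at 0.05. CPM are TMM-scaled. SEs derive from the F statistic. DESeq2 1.42.0 on the same genes, limma-voom (limma 3.58.1), other scalings, filters, covariates and subsets were alternatives; DESeq2 with its own filtering and DESeq2 without libraries were added after the data were seen. Genes named were the 10 of smallest p in each direction with a symbol and a mean of at least 1 CPM, up to 4 members of smallest p of each list described, and Arc, Gfap, Cst7, Trem2, Prnp, App, Cd3e, Cd8b1, Cd8a and Ttr; further members were picked as examples after their values were seen. The comparison, the 42 lists (782 symbols) and this rule were chosen with earlier results of these data known. Symbols matched 45143 identifiers, and genes without one held 0.101% of the counts. The values of some list members are not reported here.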

Additional observations from a re-analysis of the deposited data

Results flagged for a closer look

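In each group of 5, the value furthest from the others was compared with the spread of its group for the named genes and the list levels. Of 284 such groups 20 stood out (7.04%), where chance gives about 5%, or 1 in 20.

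Treated replicate 3 stood apart in the microglial genes Trem2 and Cst7, in the MHC class I transactivator Nlrc5 and in Syt7. It had 59.2 CPM of Trem2 (22.6 to 32.5 in the other treated mice), 53.2 CPM of Cst7 (9.31 to 19.7), 6.84 CPM of Nlrc5 (3.17 to 4.20) and 469.6 CPM of Syt7 (386 to 398).

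Treated replicate 2 was high in 2 glucocorticoid-response genes, with 22.5 CPM of Hif3a (3.89 to 8.34) and 29.9 CPM of Plin4 (5.299 to 11.9). Treated replicate 4 had a thalamic marker level of 1.43 on the log2 scale (−0.48 to −0.17).

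Choroid plexus genes were high in treated replicate 1, which had 1860 CPM of Ttr (20.7 to 50.9), 58.6 CPM of Prlr (7.501 to 9.87), 44.1 CPM of Clic6 (4.29 to 12.2), 38.3 CPM of F5 (1.55 to 2.40), 11.0 CPM of Kcnj13 (0.495 to 0.654) and a list level of 2.08 (−1.34 to −0.89).

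Among PBS-given mice, replicate 2 was high in the Purkinje cell genes Car8 (26.3 CPM, 6.07 to 9.88 in the others) and Pcp2 (3.67, 0.386 to 0.976). Replicate 4 was high in Cst7 (31.6 CPM, 13.1 to 18.3) and in the levels of the lists of homeostatic microglia (0.19, −0.12 to −0.05) and of T and natural killer cells (0.10, −0.09 to −0.05). Replicate 1 was low in the levels of mural cells and fibroblasts (−0.83, 0.31 to 0.70) and of border macrophages (−0.45, 0.18 to 0.43).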

How the results depend on the processing

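The count of genes past an adjusted p of 0.05, 0 in edgeR, was also 0 with limma-voom, RLE or upper-quartile factors, a mean of at least 1 CPM, no sex term, sex read from the genes, and a term for the animal number series or for choroid plexus genes. It was 143 with DESeq2 and 131 with its own filtering (125 shared), 13 in edgeR without a filter on low counts, all of them among the 143, and 1 (Tpbg) in the 10 APP-PS1 libraries alone. Leaving out each APP-PS1 library it was 0 to 2 in edgeR (Irs4 without treated replicate 1, Shank3 without PBS replicate 4, Rtp1 and Npas4 without PBS replicate 5). In DESeq2 it was 159, 400, 17, 221 and 19 without treated replicates 1 to 5 and 423, 13, 19, 860 and 119 without PBS replicates 1 to 5, and DESeq2 gave 93 without the 5 libraries above 1000 CPM of Ttr, where edgeR gave 0. The count at an unadjusted p under 0.05, 2529, was 891 and 1343 within the lower and the higher animal number series, 1281 without the 5 libraries and 1752 to 3420 without each library. With sex read from the genes, an alternative not run in DESeq2, that count was 2964. Genes whose groups did not overlap, 341, were 1063 without the 5 libraries and 415 to 1096 without each library, where smaller groups overlap less by construction. Some genes said above to have passed in DESeq2 did not pass with its own filtering. Among them were Nr4a1 (adjusted p 0.0578 in DESeq2), Dusp4 (0.0538), Isg15 (0.0507), Hsp90aa1 (0.0521) and Dcn (0.0538).

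Of 110 named genes with an estimate, 99 kept their sign under every alternative. Within the lower-numbered animals the sign turned for Clic6 (0.0091), Ttr (0.27), Trem2 (−0.11), Gfap (−0.12), App (−0.023), Cst7 (−0.25) and Cd8a (−0.40), and within the higher-numbered for Vip (0.0019), Pcp2 (0.090), Itgae (0.13), App (−0.021) and Cst7 (−0.098). Without the 5 libraries above 1000 CPM of Ttr it turned for Gfap (−0.058), App (−0.024) and Cst7 (−0.038), with a choroid plexus term for Ttr (0.061) and Cst7 (−0.073), and with limma-voom for Cst7 (−0.013) and Cd8a (−0.13). Leaving out 1 library at a time, estimates passed through 0 for Trem2 (−0.081 to 0.25), Prnp (−0.072 to 0.018), Gfap (−0.083 to 0.145), App (−0.024 to 0.075), Cst7 (−0.31 to 0.22) and Cd8a (−0.30 to 0.33). The cause was not tested. Leaving out 1 library moved 12 of the 20 list medians of at least 0.1 in size by over 1.5 times, and among 90 named genes with an unadjusted p under 0.05 it moved 10 estimates by as much and took 15 past 0.05. The medians of immediate early, postsynaptic and glucocorticoid-response genes were not among the 12. That of interferon-stimulated genes was, at 0.29 without treated replicate 3. Of all 32 list medians, those near 0 included, 23 moved by as much. Of 32 list medians 20 stayed within 1 SD of the main value under every alternative. No paired analysis was possible because no animal number is shared between groups.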

Other observations

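Of 20 neuropeptide genes tested, 3 had a higher (15%) and 1 a lower (5%) estimate with an unadjusted p under 0.05. Pdyn, the precursor of dynorphins, was higher without overlap (13.5, 12.5, 19.6, 16.7 and 13.5 CPM against 10.8, 9.96, 11.5, 11.6 and 11.4 CPM, 0.45, SE 0.13). Tac1, the precursor of substance P, was the 1 lower (−0.36, SE 0.14). Of 16 endothelial genes 2 had a higher and 2 a lower estimate with such a p (12.5% each). The tight junction gene Cldn5 (0.31, SE 0.11) and Kdr (0.28, SE 0.12), a receptor for vascular endothelial growth factor, were the higher ones. The transporter gene Slc2a1, which carries glucose across the blood-brain barrier, was at 75.7 ± 9.43 against 91.9 ± 9.11 CPM (−0.29, SE 0.08) and passed in DESeq2, and Mfsd2a, which carries omega-3 lipids there, had an estimate of −0.43 (SE 0.16). Ribosomal protein genes had 25 of 26 higher estimates with a median of 0.10 and none with an unadjusted p under 0.05. Genes of respiratory complexes had a median of 0.03 and myelin genes one of −0.04, with 0 of 26 and 1 of 16 members at such a p. These genes were picked after their values were seen.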
